A study of Mus musculus with 31 samples.

Results

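The effect of the db genotype alone on hippocampal gene expression was described by setting 10 freely fed db/db mice against 11 db/m mice, which made up 21 of the 31 mice of the series. Both groups were C57BLKS/J animals with free access to food and no fasting regimen. The labels give an age of 3 months, and since tissue was taken after a regimen of several weeks in the series, the age at collection is uncertain. Male db/db mice carry the db allele of Lepr, the leptin receptor gene, on both copies of the chromosome. The db/m mice, heterozygous male littermates, carry db on a single copy, so they are not wild type. Whole hippocampus was sequenced as bulk RNA, and the expression of each locus was given as FPKM, a count of fragments scaled by transcript length and by the total of mapped fragments. Of the 27094 loci in the table, 17139 had an FPKM above 1 in at least 10 of the 31 mice and were tested. The remaining 10 mice, fasted db/db-IF animals, entered the fit only to share the estimate of the spread. Where a locus was lower in bulk tissue, fewer cells of a type and less RNA per cell cannot be told apart. Each mouse was a separate library, but litters, cages and dissection days were not given, so the p-values measure the spread between these mice. The number of fragments behind each value is unknown from the FPKM table.

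Leptin is the adipose hormone that reports energy stores to the brain, and db/db mice lack the long signalling form of its receptor, so they overeat and become obese, hyperglycaemic and insulin resistant, with high circulating corticosterone and a low body temperature. The hippocampus forms spatial and episodic memory through its dentate, CA3 and CA1 excitatory neurons, which are supported by astrocytes, microglia and oligodendrocytes. Impaired hippocampal synaptic plasticity and memory are known features of this mouse.

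The tissue label was checked against marker genes. Prox1 of dentate granule cells had 5.22, 8.18 and 11.5 FPKM (lowest, median and highest mouse) in db/db and 0.644, 6.96 and 9.17 FPKM in db/m, and Wfs1 of CA1 neurons had 16.7, 207 and 295.8 FPKM in db/db and 64.1, 186.8 and 258.1 FPKM in db/m. Tissue from beside the hippocampus was also present. The mean log2(FPKM + 1) of 13 choroid plexus markers ran from 2.21 to 4.20 with a median of 3.29 in db/db mice and from 2.27 to 4.66 with a median of 4.10 in db/m mice, and the choroid plexus transcript Ttr had a highest value of 26190 FPKM among db/db mice and of 32960 FPKM among db/m mice. The mean of 16 striatal and thalamic markers lay between 3.15 and 3.61 in db/db mice and between 3.19 and 4.32 in db/m mice, and db/m mouse 11 stood apart, since the next db/m mouse was at 3.65. The ranges of both levels overlapped between the groups, and only their medians were lower in db/db mice (striatal and thalamic median 3.27 in db/db and 3.36 in db/m). When both were added as covariates, an alternative chosen after the values were seen, 559 loci were called in place of the 985 given next, and without db/m mouse 11 777 loci were called. The part of adjacent tissue in the results was otherwise not tested. Lepr itself, measured over its whole locus, was near the lower limit, with 0.0824, 0.198 and 0.445 FPKM in db/db and 0.142, 0.427 and 0.577 FPKM in db/m. The groups overlapped, and the difference of -0.16 on the log2(FPKM + 1) scale had p = 0.032 in a two-sided permutation test with 100000 resamples. The db mutation changes splicing rather than removing the gene, so the level of the whole locus does not check the genotype.

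Differences between db/db and db/m hippocampus were many and small. A locus was called when its difference in mean log2(FPKM + 1), db/db minus db/m, had an adjusted p under 0.05 in limma's moderated test. In all, 985 loci (5.75% of those tested) were called, 507 (2.96%) higher and 478 (2.79%) lower in db/db mice. The median size among called loci was 0.23 on the log2 scale, a change of 17.4%, and the median difference of all tested loci was 0.0088. Only 20 called loci were higher by more than 0.5 and 33 lower by more than 0.5, and 5 and 2 exceeded a size of 1. At 44 loci (0.257%) all db/db mice lay above all db/m mice and at 39 loci (0.228%) all lay below, so the groups did not overlap at 0.484% of loci. Of the called loci, 38 of the higher and 37 of the lower ones were among these. The share called was 6.41% among the 11225 main loci of named genes and 2.47% among the 2143 further loci that carry the name of the same gene. The 3 calls among 220 loci whose FPKM fell into separate high and low clusters were kept in these counts.

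**Figure D1:**
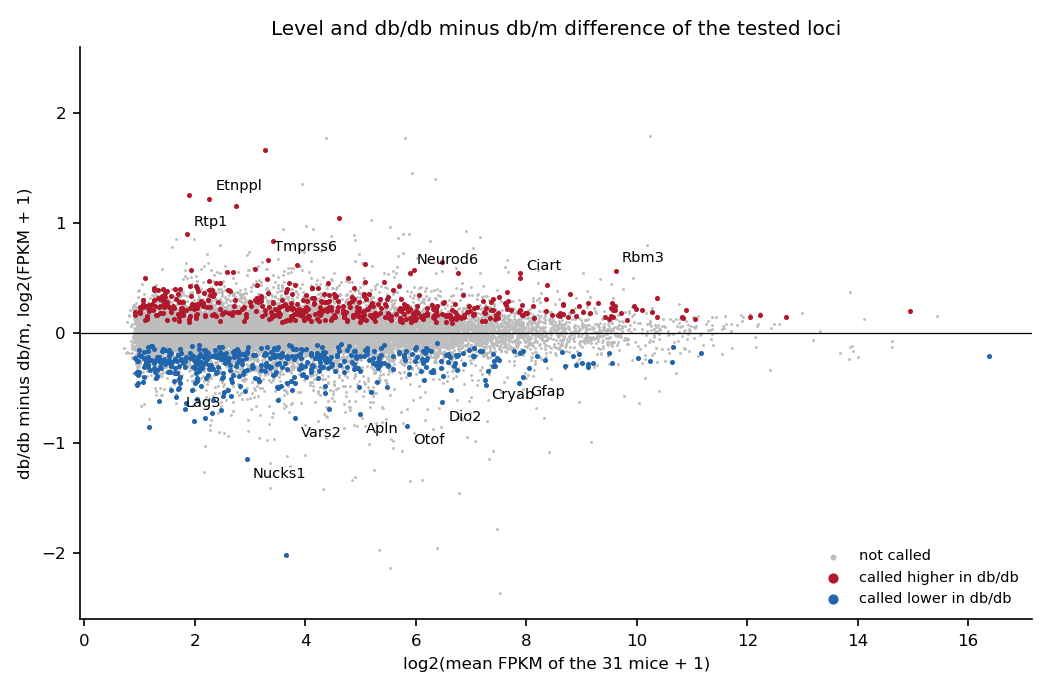
Each point is one of the 17139 tested loci, with its log2(mean FPKM of the 31 mice + 1) on the horizontal axis and its db/db minus db/m difference in mean log2(FPKM + 1) on the vertical axis. The 507 loci called higher in db/db are red, the 478 called lower are blue and the rest are grey, and most coloured points lie within 0.5 of zero.

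Etnppl, Zrsr1 and Rtp1 were among the named genes with the largest increases. Etnppl, an astrocyte-enriched enzyme that breaks down phosphoethanolamine, had 2.29, 3.47 and 6.29 FPKM in db/db and 0.308, 1.01 and 3.56 FPKM in db/m. The ranges overlapped, with 4 db/db mice above every db/m mouse and all 10 above the db/m median, and the difference was 1.22 ± 0.185 (SE; adjusted p = 0.00016, limma). Rtp1, which escorts odorant receptors to the cell surface, had 1.404, 2.45 and 4.39 FPKM in db/db and 0.414, 1.02 and 1.31 FPKM in db/m. Here the groups did not overlap, and Rtp1 rose by 0.90 ± 0.116 (adjusted p = 4e-05). Zrsr1, an imprinted retrogene related to a splicing factor, was spread widely in db/db (2.31, 12.1 and 14.4 FPKM) and less in db/m (1.41, 3.00 and 3.398 FPKM), and its call (1.16, adjusted p = 0.029) was lost when any of 7 single mice was left out, with an adjusted p of up to 0.061. Gse1 and Fstl4 were also called higher, at 0.63 and 0.61, but Gse1 lost its call without any 1 of 11 mice (adjusted p up to 0.078) and Fstl4 without any 1 of 15 (up to 0.083). Lrg1, a secreted glycoprotein induced in inflammation and vessel growth, rose by 0.55 with 9 of 10 db/db mice above every db/m mouse. Lrrc17 and Ect2l rose by 0.57 and 0.50, both at medians of at most 2.99 FPKM.

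Transcripts of the cold-inducible genes Rbm3 and Cirbp were higher in db/db mice. Rbm3, whose mRNA rises at mild hypothermia and which protects synapses in cooled mice, had 762, 835 and 1026 FPKM in db/db and 459, 584 and 646 FPKM in db/m. No mouse of either group reached into the range of the other, and the difference was 0.57 ± 0.0786 (adjusted p = 7.6e-05). Cirbp, the other member of the family and picked out after its values were seen, had 627, 797 and 839 FPKM in db/db and 576, 626 and 698 FPKM in db/m. The ranges overlapped, with 7 db/db mice above every db/m mouse, and Cirbp rose by 0.27 ± 0.0507 (adjusted p = 0.0015). Small adjusted p-values among higher genes were also found for Serbp1, which binds mRNA and ribosomes (0.18, adjusted p = 6.5e-05, no overlap), Cwc27, a spliceosomal cyclophilin (0.36, adjusted p = 6.5e-05), and Haus4, a subunit of the microtubule-branching augmin complex (0.24, adjusted p = 7.6e-05).

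**Figure D2:**
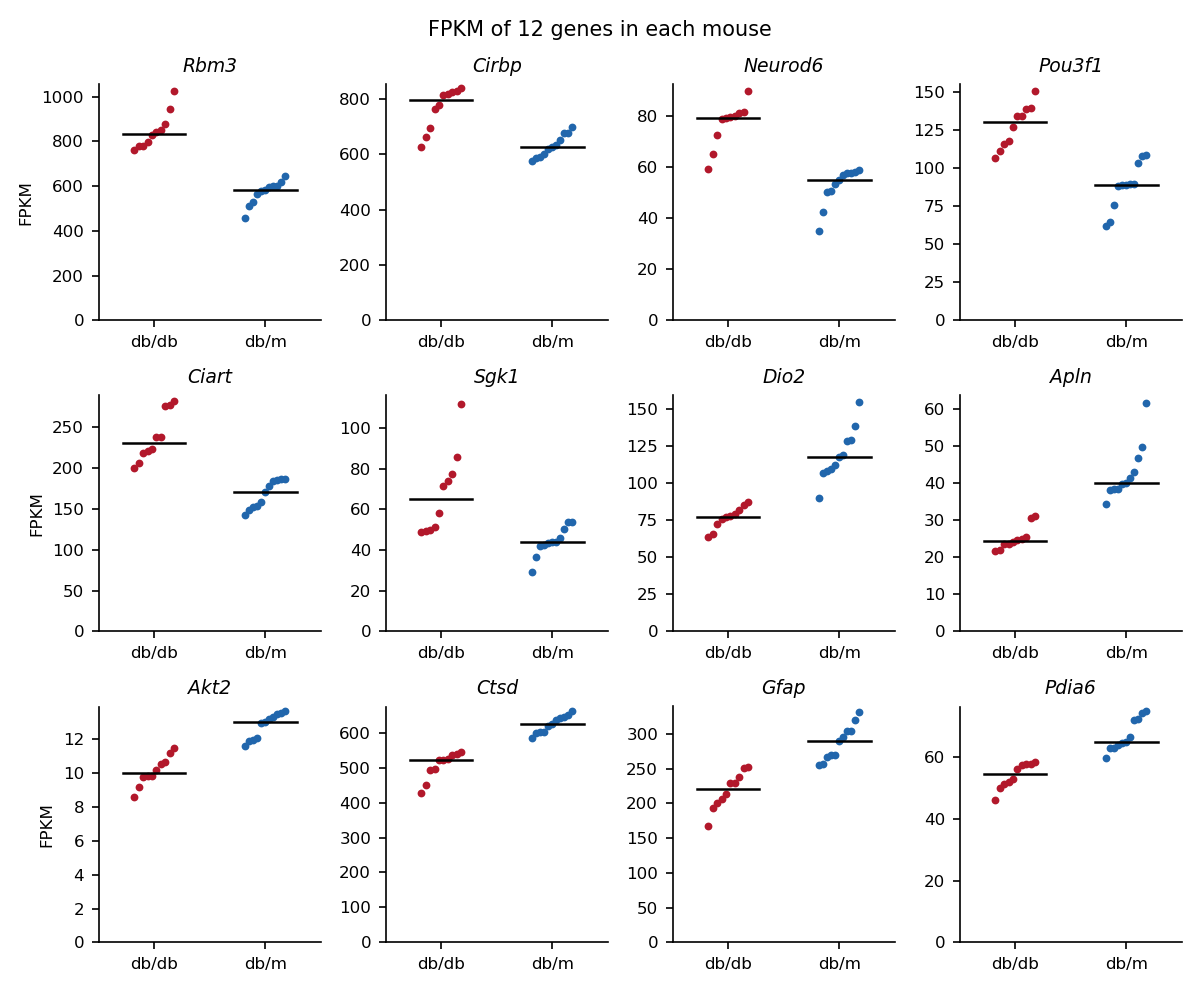
FPKM of 12 genes in each mouse, with db/db mice (red) left of db/m mice (blue), points sorted by value within a group and bars at the group medians. Rbm3, Neurod6, Ciart, Dio2, Apln, Akt2, Ctsd, Gfap and Pdia6 show no overlap between the groups, whereas Cirbp, Pou3f1 and Sgk1 do.

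The called genes in the glucocorticoid list were Sgk1 and the metallothioneins Mt1 and Mt2. Of 27 tested genes induced by corticosteroids, these 3 rose, against 2.96% of all tested loci, and none fell, and the list's median difference was 0.10 beside 0.0088 over all tested loci. Sgk1, a kinase induced by corticosteroids that regulates ion channels and synaptic plasticity, had 49.0, 64.9 and 111.8 FPKM in db/db and 29.1, 43.8 and 53.8 FPKM in db/m. The ranges overlapped slightly, 6 db/db mice were above every db/m mouse, and Sgk1 rose by 0.57 ± 0.126 (adjusted p = 0.0057). The metal-binding proteins Mt2 and Mt1, induced by both zinc and corticosteroids, rose by 0.44 (adjusted p = 0.0043) and 0.36 (adjusted p = 0.0096), with 9 and 8 of 10 db/db mice above every db/m mouse. Other widely used corticosteroid markers did not pass the test. Fkbp5, a chaperone of the receptor, differed by 0.27 with a standard error of 0.57, Tsc22d3 by -0.02, and the receptors Nr3c1 and Nr3c2 by 0.02 and 0.38 (adjusted p = 0.92 and 0.22).

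Among 23 clock genes, 2 rose and 1 fell, against 2.96% and 2.79% of all tested loci. Ciart, a repressor of the CLOCK and BMAL1 activators, had 200.3, 230.4 and 281.4 FPKM in db/db and 141.7, 170.5 and 186.6 FPKM in db/m, without overlap, and rose by 0.50 ± 0.0683 (adjusted p = 7.6e-05). Nfil3, which opposes D-box activators, fell by 0.23 (adjusted p = 0.0016) with 9 of 10 db/db mice below every db/m mouse. The core members Arntl, Per2, Cry1 and Dbp differed by -0.14, -0.01, 0.03 and 0.05 and did not pass. The E-box CACGTG, the site bound by CLOCK and BMAL1, was searched on both strands in RefSeq promoters of build GRCm38.p6, taken from 250 bases before to 50 bases after each start. It was found in 7.15% of 32851 promoters. Of the called clock genes with a promoter in that table, Ciart held 3 copies and Nfil3 none, and of 16 clock genes with a promoter that were not called, 4 (Per1, Cry1, Tef and Bhlhe41) held the motif. The 150-base stretch of Ciart (chr3:95882231-95882380, minus strand) is shown because it carries all 3, in capitals:
Ciart: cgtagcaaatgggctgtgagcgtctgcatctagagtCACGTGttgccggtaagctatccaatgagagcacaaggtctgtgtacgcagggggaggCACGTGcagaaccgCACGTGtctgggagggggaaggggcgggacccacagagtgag
A match of these letters is a description of the sequence and not evidence of binding.

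Some genes of excitatory neurons and of neuronal activity rose. Of 8 markers of excitatory neurons, 3 (Neurod6, Neurod2 and neurogranin, Nrgn) rose, against 2.96% of all tested loci, and none fell (median 0.14). With single mice left out the count ran from 2 to 3, and Nrgn lost its call without any 1 of 14 mice. Neurod6, a transcription factor of pyramidal neurons, had 59.1, 79.2 and 89.5 FPKM in db/db and 35.1, 54.7 and 58.8 FPKM in db/m. The groups did not overlap and Neurod6 rose by 0.55 ± 0.0927 (adjusted p = 0.00054). Its relative Neurod2 rose by 0.26 (adjusted p = 0.016), and Pou3f1, a POU-domain factor used as a CA1 marker and the single call of 7 such markers, rose by 0.54 (adjusted p = 0.001) with 9 of 10 db/db mice above every db/m mouse. The general markers Slc17a7 and Camk2a, which load glutamate into vesicles and sense calcium at synapses, differed by -0.01 and 0.05 and did not pass.

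Of 27 immediate early genes, 5 rose, against 2.96% of all tested loci, and none fell (median 0.12). With single mice left out, however, the count ran from 2 to 6, and with the choroid plexus and striatal marker levels as covariates it was 1. Dusp6, a phosphatase that restrains ERK, had 5.76, 6.20 and 7.69 FPKM in db/db and 3.83, 4.67 and 5.77 FPKM in db/m. Only the lowest db/db mouse was inside the db/m range, and Dusp6 rose by 0.39 ± 0.0823 (adjusted p = 0.0045). The neurotrophin Bdnf, at 32.0, 32.6 and 37.4 FPKM in db/db and 22.9, 29.4 and 31.9 FPKM in db/m, was separated by a narrow gap and rose by 0.24 ± 0.0644 (adjusted p = 0.023). Klf2, Jund and Junb were the other calls, at 0.24, 0.19 and 0.32. Fos and Npas4, which respond within minutes of firing, differed by -0.23 and -0.12 and did not pass, and Arc and Egr1 differed by 0.39 and 0.33 (adjusted p = 0.13 and 0.099).

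Synaptic and calcium-handling genes added calls that were mostly upwards. Gria2, the AMPA receptor subunit that limits calcium entry, had 1990, 2058 and 2317 FPKM in db/db and 1574, 1815 and 2007 FPKM in db/m. In all, 8 of 10 db/db mice lay above the db/m range, and Gria2 rose by 0.21 ± 0.0458 (adjusted p = 0.0063). With Homer3 (0.26) and neurogranin, Nrgn (0.21), it made 3 higher calls among 39 glutamate receptor and scaffold genes, against 2.96% of all loci, and the list's median was 0.02. Homer3 shares its locus with Gm38427. With the marker levels as covariates Gria2 alone was called, and Nrgn also lost its call without any 1 of 14 mice. A list of calcineurin and calcium pump genes, drawn up after values were seen, held 4 calls among 18, all higher, against 2.96% of all loci, and 2 with the marker levels as covariates, where Calm2 and Ppp3r1 lost theirs. Atp2b1, a calcium pump of the plasma membrane (201.3, 236.7 and 253.1 FPKM in db/db, against 147.4, 180.4 and 198.6 FPKM in db/m), and Ppp3ca, the catalytic subunit of calcineurin (1325, 1473 and 1614 FPKM in db/db, against 904, 1196 and 1318 FPKM in db/m), did not overlap between groups, and rose by 0.37 (adjusted p = 0.00036) and 0.32 (adjusted p = 0.0019). The calcium sensor of vesicle release Syt1 and the vesicle protein Sv2c rose by 0.22 and 0.18, and the potassium channels Kcnd2 and Kcnk2 by 0.35 and 0.22, while Kcna6 fell by 0.23 on the log2 scale. With the marker levels as covariates Syt1, Sv2c, Kcnd2 and Kcna6 lost their calls, whereas Kcnk2 kept its call. Otof, whose protein otoferlin triggers release in hair cells, was called lower (-0.84, adjusted p = 0.029), but db/m mouse 11 had the highest value of 183.7 FPKM, and without that mouse the difference was -0.69 (adjusted p = 0.053).

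**Figure D3:**
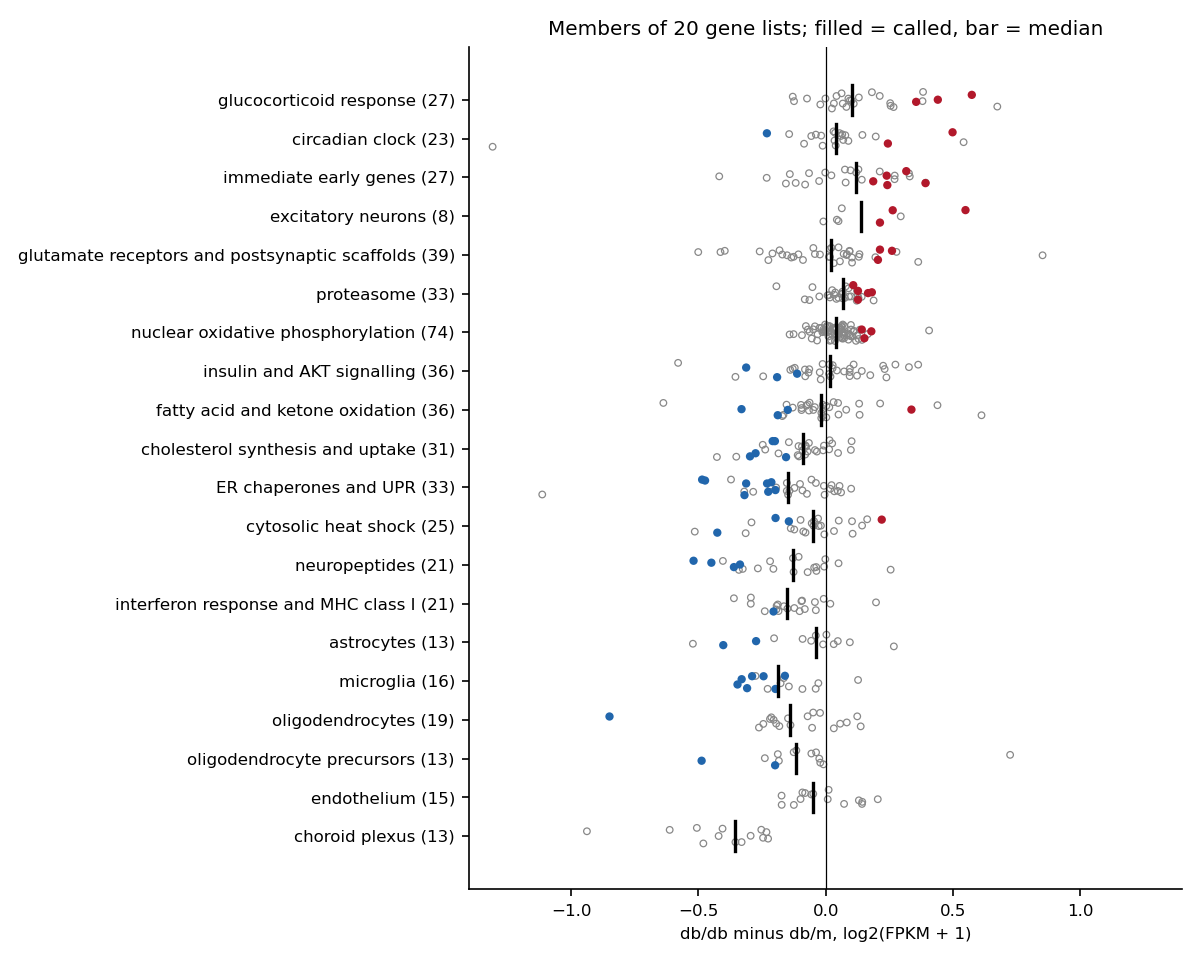
Db/db minus db/m difference in mean log2(FPKM + 1) of every tested member of 20 gene lists, with the number of tested loci after each name. Filled points were called (red higher, blue lower in db/db), open points were not, and the black bar is the list's median, which lies lowest for choroid plexus, microglia, the interferon list and the ER chaperones and unfolded protein response (UPR).

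Dio2, Dio3 and Apln were among the leading decreases. Dio2, the deiodinase by which astrocytes turn thyroxine into active triiodothyronine, had 63.5, 77.4 and 87.3 FPKM in db/db and 89.8, 117.9 and 154.8 FPKM in db/m. The ranges did not overlap, and Dio2 fell by 0.63 ± 0.0807 on the log2 scale (adjusted p = 4e-05). Dio3, which inactivates thyroid hormone in neurons, was called at -0.64 with an adjusted p of 0.047, and lost that call without any 1 of 15 mice. In a list of 17 thyroid hormone genes added after values were seen, Dio2 and Dio3 were the only calls, against 2.79% of all tested loci called lower. The receptors Thra and Thrb were among those not called. Apln, the precursor of the vasoactive peptide apelin, had 21.7, 24.4 and 31.1 FPKM in db/db and 34.3, 40.1 and 61.7 FPKM in db/m, with no overlap, and fell by 0.74 on the log2 scale (adjusted p = 0.00012).

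Further leading decreases included Lag3, Fgfrl1 and Heatr1. Lag3, an inhibitory receptor of T cells, had 1.403, 1.88 and 2.24 FPKM in db/db and 2.40, 3.19 and 3.36 FPKM in db/m and fell by 0.50 on the log2 scale, with the smallest adjusted p of all named genes (3.3e-05). Fgfrl1, a decoy receptor for fibroblast growth factors (-0.37, adjusted p = 7.6e-05), Heatr1, which acts in ribosome biogenesis (-0.33, adjusted p = 0.00013), the class Ib histocompatibility gene H2-T24 (-0.62, adjusted p = 0.0022) and Vars2, the mitochondrial valyl-tRNA synthetase (-0.77, adjusted p = 0.013), likewise showed no overlap. Cryba4 and neuroglobin, Ngb, fell by 0.61 and 0.69 on the log2 scale. Nucks1, a chromatin protein, had 2.13, 2.87 and 4.05 FPKM in db/db and 2.88, 13.3 and 15.3 FPKM in db/m, and its call (-1.15, adjusted p = 0.026) was lost without db/m mouse 4 or 11 (adjusted p = 0.051 and 0.053). Col6a4 (-0.80), Lax1 (-0.77), Eps8 (-0.73), Cfap52 (-0.70) and Zfp579 (-0.69) completed the leading group, of which Eps8 lost its call without any 1 of 15 mice (adjusted p up to 0.094), Lax1 without any 1 of 9, Cfap52 without any 1 of 4 and Zfp579 without db/db mouse 10.

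Some astrocyte, microglial and oligodendrocyte-lineage markers fell. Gfap, the intermediate filament of astrocytes, had 167.1, 221.1 and 252.3 FPKM in db/db and 254.9, 290.1 and 331.2 FPKM in db/m. The lowest db/m mouse was above the highest db/db mouse, and Gfap fell by 0.40 ± 0.0634 on the log2 scale (adjusted p = 0.00026). S100b fell by 0.27, whereas the other 11 of 13 astrocyte markers did not pass and the list's median was -0.04. These 2 calls were 15.4% of the list, against 2.79% of all tested loci called lower. Against the same 2.79%, 7 of 16 microglial markers fell and none rose (median -0.19). They were the complement components C1qa, C1qb and C1qc, which tag synapses for removal, the lipid receptor Trem2, its adaptor Tyrobp, and Tmem119 and Olfml3. C1qb had 15.9, 20.2 and 23.9 FPKM in db/db and 21.99, 26.3 and 27.6 FPKM in db/m and fell by 0.35 ± 0.0672 on the log2 scale (adjusted p = 0.0022). Trem2 had 7.40, 7.99 and 9.75 FPKM in db/db and 8.59, 10.7 and 12.2 FPKM in db/m and fell by 0.31 (adjusted p = 0.0028). In both genes 8 of 10 db/db mice were below every db/m mouse. The microglial identity genes Cx3cr1, P2ry12 and Siglech differed by -0.04, -0.03 and 0.13 and did not pass.

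In the oligodendrocyte lineage, Gpr17, a receptor of newly committed precursors, had 7.89, 9.12 and 12.3 FPKM in db/db and 11.0, 13.8 and 15.7 FPKM in db/m and fell by 0.49 (adjusted p = 0.00041) with 9 of 10 db/db mice below every db/m mouse. Neu4 fell by 0.20, and the other 11 of 13 precursor markers did not pass. Over all tested loci, 2.79% were called lower. The mature myelin genes Mbp and Mog differed by -0.18 and -0.07 and did not pass, and Klk6, a myelin-associated protease, was the single call of 19 (-0.85, adjusted p = 0.016). Db/m mouse 11 was highest for Klk6 at 8.70 FPKM, and without it the difference was -0.67 (adjusted p = 0.013). The 15 endothelial, 9 mural, 12 meningeal and 13 choroid plexus markers gave no call, yet all 13 choroid plexus markers were lower in db/db, with a median of -0.36.

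Several lysosomal genes fell without overlap between the groups, as did 0.228% of all tested loci. In a list of 47 lysosomal enzymes and membrane proteins, 7 fell, against 2.79% of all tested loci, and none rose (median -0.08). The list was put together after these genes were seen among the loci without overlap, so its count is not independent of them. Ctsd, the main aspartic protease of lysosomes, had 426.3, 522 and 546 FPKM in db/db and 584, 626 and 663 FPKM in db/m, and fell by 0.31 ± 0.0533 (adjusted p = 0.0007). Npc2, which moves cholesterol out of lysosomes, had 351.7, 434.6 and 452.8 FPKM in db/db and 460.8, 512.7 and 614.5 FPKM in db/m, and fell by 0.29 (adjusted p = 0.0012). Hexa, the hexosaminidase subunit that degrades gangliosides (-0.24, adjusted p = 0.00015), the protease Ctsh (-0.27) and prosaposin, Psap (-0.16), also had every db/db mouse below every db/m mouse. Ctsz and Cd63 were the remaining calls at -0.23 and -0.27. With the adjacent-tissue marker levels as covariates, 6 of the list were called lower.

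Several chaperones of the endoplasmic reticulum (ER) fell. Of 33 tested ER chaperone and unfolded protein response genes, 8 fell, against 2.79% of all tested loci, and none rose. In this list 26 were below zero and the median was -0.15. Pdia6, a disulphide isomerase, had 46.2, 54.5 and 58.4 FPKM in db/db and 59.9, 65.0 and 75.0 FPKM in db/m, without overlap, and fell by 0.31 ± 0.0526 (adjusted p = 0.00051). Hspa5, the Hsp70-type chaperone BiP that senses unfolded protein, had 68.8, 79.8 and 93.4 FPKM in db/db and 77.5, 97.8 and 127.6 FPKM in db/m, and fell by 0.32 ± 0.0755 (adjusted p = 0.0096) with overlapping ranges. Hsp90b1, the Hsp90-type chaperone, fell by 0.23 (adjusted p = 0.00041), the calcium-binding chaperone Calr by 0.47 (adjusted p = 0.038), the degradation factor Derl3 by 0.49 (adjusted p = 0.0047), and Hyou1, Creld2 and the transcription factor Xbp1 by 0.20, 0.23 and 0.21. The stress effectors Atf4, Ddit3 and Trib3 were not called. With choroid plexus and striatal marker levels as covariates, 3 members were called lower.

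The promoters of these genes were inspected because ER chaperones share a known control element. The ER stress element (CCAAT, then 9 bases of any kind, then CCACG), a motif chosen after the values were seen and searched on both strands, occurred in 0.119% of the 32851 RefSeq promoters and in 0.137% of their genes. Of the 8 called genes, 7 had a promoter in the table and 6 of these held the element, against 3 (Canx, Dnajc3 and Syvn1) of the 22 members with a promoter that were not called. The exception among called genes was Xbp1, and Hyou1 had no entry. Across the list, the median difference was -0.23 for the 9 members with the element and -0.06 for 19 without it that were matched by symbol. Among all tested genes with a promoter, 19 held the element, of which 6 were called lower, none was called higher and 18 were below zero, and the 10 of them outside the list, none called, had a median of -0.09 beside -0.0022 for the 9364 tested genes with a promoter. Stretches of 150 bases upstream of the start are shown for the 6 called genes, with the element in capitals, read along the strand of the gene, so that an element on the opposite strand begins with CGTGG and ends with ATTGG. They lie at chr2:34771940-34772089, plus strand (Hspa5), chr10:86705520-86705669, minus strand (Hsp90b1), chr12:17266425-17266574, plus strand (Pdia6), chr8:84847010-84847159, minus strand (Calr), chr15:88819454-88819603, plus strand (Creld2) and chr10:75893176-75893325, plus strand (Derl3) of GRCm38.p6:
Hspa5: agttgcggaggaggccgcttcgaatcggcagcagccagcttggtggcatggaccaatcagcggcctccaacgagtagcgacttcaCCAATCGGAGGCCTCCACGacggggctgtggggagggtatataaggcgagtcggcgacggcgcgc
Hsp90b1: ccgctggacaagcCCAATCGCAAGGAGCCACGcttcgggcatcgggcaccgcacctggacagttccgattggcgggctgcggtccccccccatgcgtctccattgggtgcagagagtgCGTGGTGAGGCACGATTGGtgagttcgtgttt
Pdia6: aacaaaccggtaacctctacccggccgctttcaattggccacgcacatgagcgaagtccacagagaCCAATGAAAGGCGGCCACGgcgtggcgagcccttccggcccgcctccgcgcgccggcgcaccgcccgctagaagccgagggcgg
Calr: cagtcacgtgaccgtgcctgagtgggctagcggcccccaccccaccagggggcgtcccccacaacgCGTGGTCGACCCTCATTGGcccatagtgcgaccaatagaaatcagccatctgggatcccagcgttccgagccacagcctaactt
Creld2: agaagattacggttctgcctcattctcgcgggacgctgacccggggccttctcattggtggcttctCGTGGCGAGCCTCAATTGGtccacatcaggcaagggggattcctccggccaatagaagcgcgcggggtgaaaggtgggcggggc
Derl3: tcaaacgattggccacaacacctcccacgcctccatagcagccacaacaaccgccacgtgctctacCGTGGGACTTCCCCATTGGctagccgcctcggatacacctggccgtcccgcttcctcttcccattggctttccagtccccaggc
The first base of the element lay 65 bases before the start in Hspa5, 98 in Pdia6, 126 in Creld2, 156 in Derl3 and 162 in Calr, and Hsp90b1 held 2 copies, the first at 212. No binding was measured. Cytosolic heat shock genes, counted apart, gave 3 lower calls and 1 higher call among 25, against 2.79% and 2.96% of all tested loci. Cryab, a small heat shock protein of glia, had 108.2, 123.5 and 159.4 FPKM in db/db and 120.2, 182.4 and 237.0 FPKM in db/m and fell by 0.43 (adjusted p = 0.0053). The co-chaperones Fkbp4 and Bag3 fell by 0.20 and 0.14, and Hspa2 rose by 0.22. The heat shock element (GAA, TTC and GAA, with 2 bases of any kind between neighbours), found in 0.603% of promoters and 0.662% of genes, was in none of the 3 called genes with a promoter and in 4 of the 17 that were not called. The glucocorticoid element (GNACA, 3 bases of any kind, then TGTNC) was found in 0.475% of promoters and in 0.537% of genes. The promoter of Mt1 held it and that of Mt2 did not. Sgk1 had promoters at 6 starts, and only start 5 held the element. Of 20 members of the glucocorticoid list with a promoter that were not called, 1 (Map3k6) held it.

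Akt2, Hadha and Hadhb were called lower among insulin and fatty acid genes. Akt2, the AKT kinase that carries the metabolic signal of insulin, had 8.57, 10.0 and 11.5 FPKM in db/db and 11.6, 13.0 and 13.7 FPKM in db/m. The highest db/db mouse was below the lowest db/m mouse, and Akt2 fell by 0.31 ± 0.0433 (adjusted p = 7.6e-05). With the lipid phosphatase Inpp5d (-0.19) and the mTORC1 subunit Rptor (-0.11, adjusted p = 0.047) it made 3 lower calls and none higher among 36 insulin and AKT genes, against 2.79% of all loci called lower, and the list's median was 0.02. Rptor lost its call without any 1 of 15 mice. Hadha and Hadhb, the subunits of the mitochondrial trifunctional protein of fatty acid oxidation, fell together by 0.19 (adjusted p = 0.0015) and 0.15 (adjusted p = 0.0095), and Hadha showed no overlap, with 52.2, 55.2 and 59.7 FPKM in db/db and 60.3, 63.7 and 65.5 FPKM in db/m. Fabp7, a fatty acid carrier of astrocytes, fell by 0.33 on the log2 scale.

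Of 31 cholesterol genes 5 fell, against 2.79% of all tested loci, and none rose, and 25 were below zero (median -0.09). Mvd, which makes isopentenyl pyrophosphate, had 7.81, 9.75 and 10.7 FPKM in db/db and 10.2, 11.4 and 13.4 FPKM in db/m and fell by 0.28 ± 0.0594 (adjusted p = 0.0051). Dhcr7, Cyp51 and Msmo1 of the sterol branch and Idi1 of the isoprenoid branch fell by 0.16, 0.20, 0.21 and 0.30. The regulators Srebf2 and Insig1 differed by -0.01 and -0.09 and did not pass. Of 21 genes of leptin receptor signalling only Npy was called, lower, against 2.79% of all tested loci. Jak2, Stat3, Socs3 and Ptpn1 differed by 0.01, -0.04, -0.08 and -0.09 without passing.

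Neuropeptide genes gave 4 lower calls among 21, against 2.79% of all tested loci, and none higher, with 19 below zero and a median of -0.13. Npy, released by interneurons and an inhibitor of excitatory transmission, had 72.9, 84.9 and 104.6 FPKM in db/db and 82.9, 102.9 and 131.2 FPKM in db/m. The ranges overlapped widely, 4 db/db mice were below every db/m mouse, and Npy fell by 0.34 ± 0.0827 (adjusted p = 0.013). Pdyn, the dynorphin precursor of granule cells, fell by 0.45 (adjusted p = 0.019) and cortistatin, Cort, by 0.36 (adjusted p = 0.032). Tac1, the precursor of substance P and also a striatal gene, was called at -0.52 (adjusted p = 0.03). Its highest value of 257.9 FPKM was in db/m mouse 11, without which the difference was -0.41 (adjusted p = 0.039). With single mice left out 2 to 4 neuropeptide genes were called, and with the marker levels as covariates 1. The markers Gad1, Gad2 and Sst of inhibitory neurons differed by 0.02, -0.00 and -0.13 and did not pass.

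Interferon and class I genes showed 19 of 21 members below zero (median -0.15) but 1 call, against 2.79% of all tested loci called lower. It was the locus shared by the peptide-loading factor Tapbp and Rgl2 (-0.21, adjusted p = 0.044). That call was lost without any 1 of 15 mice (adjusted p up to 0.088). B2m, the light chain of class I molecules, had 80.8, 89.6 and 95.8 FPKM in db/db and 87.6, 99.4 and 129.9 FPKM in db/m, and its difference of -0.19 had an adjusted p of 0.052. In the inflammation and complement list of 16, the 3 subunits of C1q fell, as given above, against 2.79% of all tested loci. The acute-phase gene Serpina3n was the only higher call (0.23, adjusted p = 0.036), against 2.96% of all tested loci. Its call was lost without any 1 of 9 mice and with the marker levels as covariates. Clusterin, Clu, a secreted chaperone in the amyloid list, fell by 0.27 (adjusted p = 0.008).

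A few genes of energy metabolism and protein turnover rose by small amounts. Of 74 nuclear oxidative phosphorylation genes 3 rose and none fell, a share near the 2.96% of all loci called higher, 56 were above zero and the median was 0.04. The calls were Uqcrc2 of complex III (0.14) and Ndufs3 (0.18) and Ndufc2 (0.15) of complex I. The mitochondrial locus that spans COX1, ND4 and ND4L had 61750, 73660 and 84820 FPKM in db/db and 75340, 87130 and 93030 FPKM in db/m and was called lower (-0.21, adjusted p = 0.032), a call lost with equal medians and with quantile normalization, under which the difference was 0.0 because the locus then held the top value in every mouse. That call was also lost without any 1 of 8 mice (adjusted p up to 0.065) and with the marker levels as covariates. Among 33 proteasome genes 5 rose, against 2.96% of all loci, and none fell, and 28 were above zero (median 0.07). Psmd6, of the regulatory lid, had 128.9, 136.9 and 141.2 FPKM in db/db and 112.3, 122 and 129.7 FPKM in db/m and rose by 0.17 ± 0.0337 (adjusted p = 0.0033). Psmb2, Psmc2, Psmd1 and Psmd14 rose by 0.18, 0.13, 0.13 and 0.11, and the glycolytic enzyme Aldoa and the citric acid cycle subunit Idh3a by 0.20 and 0.17. Aldoa, Ndufs3, Ndufc2 and Psmd14 lost their calls both with equal medians and with quantile normalization. Psmc2 lost its call with equal medians but not with quantile normalization. Uqcrc2, Idh3a, Psmd6 and Psmb2 stayed called under both. The numbers of higher calls in the oxidative phosphorylation and proteasome lists also changed under both. With single mice left out, 1 to 4 oxidative phosphorylation genes (fewest without db/db mouse 2 or 10 or db/m mouse 2, 4 or 11) and 3 to 8 proteasome genes were called, and with the marker levels as covariates 1 and 3.

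Iron genes, listed after values were seen, gave 3 higher calls and 1 lower call among 21, against 2.96% and 2.79% of all tested loci. Tfrc, the transferrin receptor, had 121, 138.6 and 159.2 FPKM in db/db and 96.3, 109.6 and 119.7 FPKM in db/m, without overlap, and rose by 0.35 ± 0.0736 (adjusted p = 0.0045). Tmprss6, a protease that lowers the iron hormone hepcidin in liver, had 5.78, 9.02 and 12.5 FPKM in db/db and 2.37, 5.56 and 10.3 FPKM in db/m and rose by 0.67 ± 0.156 (adjusted p = 0.0089). The iron reductase Cybrd1 rose by 0.43 (adjusted p = 0.032), and Steap3, an endosomal iron reductase, fell by 0.30 (adjusted p = 0.014). With the choroid plexus and striatal marker levels as covariates Cybrd1 and Steap3 lost their calls, whereas Tfrc and Tmprss6 kept theirs. The ferritin chains were not among the calls.

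Lists with no call in either direction included adult neurogenesis and proliferation (18 tested genes, median -0.04), in which the immature-neuron gene Dcx had 1.80, 2.68 and 3.18 FPKM in db/db and 1.90, 2.34 and 4.07 FPKM in db/m, a difference of 0.04 with an adjusted p of 0.83. CA3 markers (6), dentate gyrus markers (9), long noncoding RNAs (15), coat colour genes (6), haemoglobin and erythroid genes (6 loci) and blood cell markers (3 loci) also gave none. Lists with a single call included the redox genes (29), where the glutathione transferase Gstm1 rose by 0.19, the GABA genes (21), where gephyrin, Gphn, rose by 0.13, the collagens (25), where Col16a1 fell by 0.45 on the log2 scale, and the ependymal markers (11), where the axonemal dynein Dnah5 fell by 0.36. These single calls made up 3.45%, 4.76%, 4.0% and 9.09% of the lists, in that order. Over all tested loci, 2.96% were called higher and 2.79% lower. Of 26 phospholipid enzymes, Etnppl rose as given above, and Ptdss2, which makes phosphatidylserine, fell by 0.17 on the log2 scale. Cytosolic ribosome genes were not analysed here.

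The db mutation lies in Lepr on chromosome 4, and db/db and db/m mice differ there by the flanking haplotypes as well as by the mutation. The share called near Lepr was close to that elsewhere. Of 126 tested loci within 10 Mb, 7 (5.56%) were called, against 5.75% of all tested loci, and of 31 within 2 Mb none was, although the median absolute difference within 10 Mb was 0.11 beside 0.0865 over all loci. All 7 lay on the side of Lepr towards higher coordinates. Dab1, an adaptor of reelin signalling whose gene was split over 16 tested loci that are all counted here, was called at 1 of them. That locus had 24.0, 26.3 and 28.8 FPKM in db/db and 19.9, 22.9 and 23.8 FPKM in db/m, without overlap, and rose by 0.23 ± 0.0429 (adjusted p = 0.0014). Acot11, a thioesterase of fatty acyl-CoA, fell by 0.30 (adjusted p = 0.0016), Hspb11 and 0610037L13Rik fell by 0.19 and 0.15, and Coa7, Gm12906 and the locus shared by Agbl4 and Bend5 rose by 0.15, 0.17 and 0.28.

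**Figure D4:**
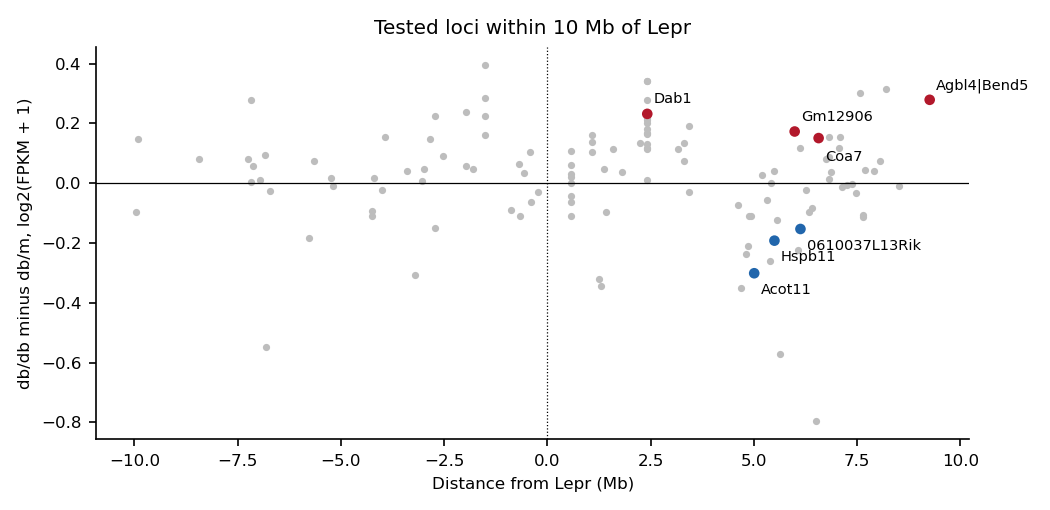
Db/db minus db/m difference in mean log2(FPKM + 1) of the 126 tested loci within 10 Mb of Lepr, by distance from Lepr in Mb (positive towards higher coordinates). The 7 called loci are coloured and named (red higher, blue lower in db/db), and Dab1 is the nearest of them.

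The mice fell into 2 sets by the base quality of their libraries in the study's sequencing summary, set A with db/db mice 1 to 5 and db/m mice 1 to 6 and set B with the other 5 of each group, which share no mouse and so repeat the comparison. Alone, set A gave 272 calls (1.59%) and set B 1 call (0.00583%), Cirbp, which differed by 0.43 in set B and 0.12 in set A. Of the 272 loci called in set A, 266 (97.8%) differed in the same direction in set B and 125 (46.0%) did so with an unadjusted p under 0.05 in set B, against 70.1% and 7.35% of all tested loci, and the unadjusted p in set B was under 0.05 at 8.21% of all tested loci, 3.81% higher and 4.4% lower in db/db. Their median size was 0.29 in set A and 0.18 in set B. Rbm3 differed by 0.46 and 0.69, Dio2 by -0.61 and -0.65, Gfap by -0.50 and -0.30, Ctsd by -0.37 and -0.24, Neurod6 by 0.51 and 0.59 and Akt2 by -0.38 and -0.25 in set A and set B. Gse1 (1.12 and 0.05) and Rptor (-0.19 and -0.03) differed mainly in set A, and Tac1 (-0.18 and -0.91) mainly in set B, where mouse 11 belongs. Whether such genes differ between the sets was not tested.

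**Figure D5:**
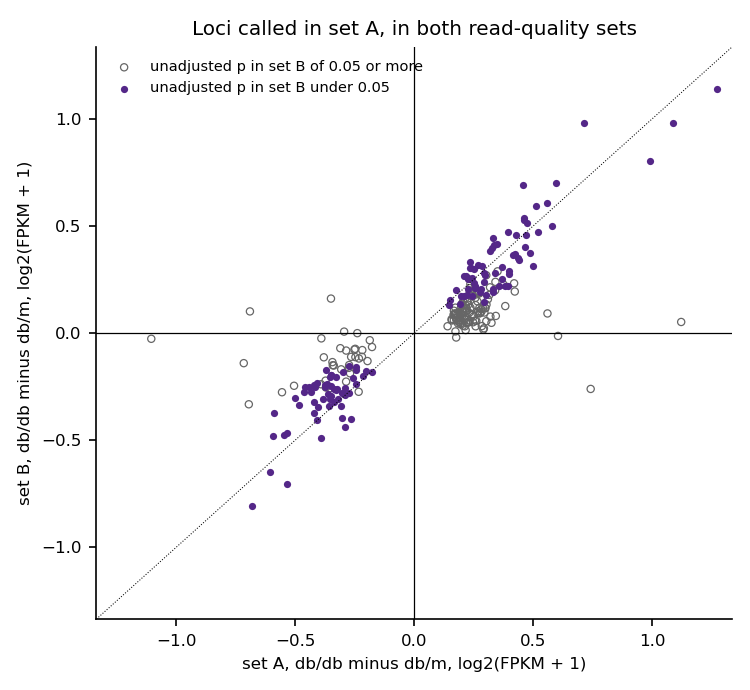
The 272 loci called in read-quality set A, with the db/db minus db/m difference in mean log2(FPKM + 1) in set A on the horizontal axis and in set B on the vertical axis. Filled points (125 loci in the same direction) had an unadjusted p under 0.05 in set B, open points did not, and the dotted line marks equal differences.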

How the data were processed

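Hippocampi of 31 mice were sequenced, and the authors deposited a single FPKM table of assembled loci, made from their reads and with no counts, so the number of fragments behind each value was not derived. The library totals in the study's sequencing summary were not used here. The submitters' processing notes name Trimmomatic 0.38, HISAT2 and StringTie 1.3.4d and build GRCm38.p6. Groups came from the genotype labels, and the columns from their names. The paper's heatmap caption gives other numbers of db/db and db/db-IF mice than the labels, and the labels were used. FPKM values were analysed as log2(FPKM + 1), so fold changes of low loci are understated. A locus was kept if its FPKM exceeded 1 in 10 or more of the 31 mice. Limma 3.58.1 in R 4.3.3 was fitted to all 31 mice with 3 group means, a trend of variance on mean expression and Benjamini-Hochberg adjustment, and db/db was contrasted with db/m. Adjusted p-values are from this model unless a left-out mouse or another setting is named beside them, in which case the model was fitted again with that change. The fit was tested on simulated data. Ranges, lists, promoters and figures used Python 3.11.15 with pandas 2.3.3, numpy 2.4.6, scipy 1.17.1 and matplotlib 3.10.9. The genes named were the 15 called genes with the largest difference in each direction (excluding predicted genes, further loci of a gene and loci with separate clusters of values), the 6 with the smallest p in each direction, up to 4 called members of each list, called genes near Lepr, and Lepr itself. Some genes that the rule names are not reported here. Other members and Cirbp were picked after their values were seen. Of 1155 symbols in 31 gene lists, 16 marker lists and 4 lists added later, 1066 were in the table, and the cytosolic ribosome list had none. The members and lists were chosen with earlier results of these data known. The read-quality sets were read from the base-quality columns of the study's sequencing summary and follow replicate number. No source states what they stand for. Alternatives were 19 other settings and leaving out each of the 21 mice in turn. Replicate numbers are shared between groups. Over 10 same-numbered pairs, the correlation of deviations from the group means ran from -0.06 to 0.16 and passed 0.1 in 2, so the numbers were not used to pair mice.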

Additional observations from a re-analysis of the deposited data

Results flagged for a closer look

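In 3 of the 125 genes checked, a single db/db mouse lay far from the other 9, with a gap to its nearest neighbour that, divided by the range of the group, both on the log2(FPKM + 1) scale, was above Dixon's 95% critical value for 10 mice. Chance gives about 1 such gene in 20. The activity-induced neurotrophin Bdnf was highest in db/db mouse 1, at 37.37 FPKM, against 32.02 to 34.48 FPKM in the other db/db mice (ratio 0.522). The proteasome ATPase subunit Psmc2 was lowest in db/db mouse 6, at 1959 FPKM, against 2115 to 2272 FPKM in the others (ratio 0.518). Complement C1qa was lowest in db/db mouse 4, at 29.08 FPKM, against 38.62 to 49.96 FPKM in the others (ratio 0.522).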

How the results depend on the processing

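Of the 985 calls (507 higher, 478 lower), numbers changed by more than 1.5 times under these settings. With the spread estimated from the 21 db/db and db/m mice alone there were 1840 calls (1059 higher, 781 lower), with Ballgown's linear model 2120 (1238 and 882), with array weights 2067 (1192 and 875), and with the slope of expression on transcript length as a covariate 1736 (1033 higher). Read-quality set A alone gave 272 (179 and 93) and set B alone 1.0 (1.0 and 0.0), the choroid plexus and striatum marker covariates, added after the data were seen, 559 (290 and 269), and a threshold of 0.01 gave 363 (174 and 189). A mean FPKM above 5 left 315 lower calls. Within 10 Mb of Lepr, where 7 loci were called, the counts were 11.0 with Ballgown's model, 12 with array weights, 3.0 in set A, 0.0 in set B, 11.0 with the slope covariate and 2.0 at a threshold of 0.01. Other causes of these changes were not tested. With each mouse left out in turn, calls ran from 756 (without db/m mouse 2) to 1132 (without db/db mouse 6), higher calls from 380 to 563, lower calls from 369 to 579 and calls near Lepr from 5 to 8. Of 122 called named genes, 35 lost the call without some single mouse, among them Lrrc17, Otof, Tac1, Cort, Fabp7, Bag3, Klf2, Jund, Ndufs3, Ndufc2, Psmd14, Gphn, Sv2c, Col16a1, Neu4, Dnah5, Cybrd1, Gm12906 and 0610037L13Rik beside those given in the report.

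With the replicate block, in which the replicate number is a term although the numbers do not pair the mice, 472 loci were called (231 higher, 241 lower; 3.0 near Lepr), and 74 of the 122 named genes remained called. Only 2 db/db mice correlated best with their own number. Read-quality set B alone kept 1 named gene and set A 41, and with the choroid plexus and striatum marker covariates 78 of the 122 remained called. The COX1, ND4 and ND4L locus differed by 0.0 with quantile normalization (adjusted p = 1.0), since it held the highest value in every mouse. The unknown depth, and fold changes understated near 1 FPKM, limit what can be said of low loci.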

Other observations

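Loci without a gene name held calls too. Of 663 tested loci with no name 35 were higher and 15 lower in db/db mice (7.54%, against 5.75% of all tested loci), and of 2105 predicted or uncharacterised genes 66 were higher and 43 lower (5.18%). Among all loci of the mitochondrial chromosome, 4 of 28 were called, all lower (14.3%), with a median difference of -0.17 (log2). The X chromosome had 3.28% of its tested loci called.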
